A study of Mus musculus with 24 samples.

Results

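Cytosolic ribosomal proteins are the proteins of the ribosomes that translate nuclear mRNAs. Their genes were taken as the protein-coding genes of the GENCODE M21 mouse annotation whose symbol is Rpl, Rplp or Rps with a number and an optional further letter or digit, plus Rpsa. The rule found 83 genes among the 55487 listed in each count file: 48 large subunit genes, 3 stalk genes (Rplp0, Rplp1 and Rplp2) and 32 small subunit genes. They lie on 19 chromosomes. The annotation gave their transcripts a median length of 886 bases and a median GC content of 51.5%. Rps4l, which GENCODE M21 does not class as protein coding, was followed beside Rps4x, and Fau and Rack1 were followed because they encode ribosome components under other names.

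A ribosome holds about the same number of copies of each of these proteins, and cells make them together with ribosomal RNA. Many of their mRNAs begin with a run of pyrimidines, the TOP motif, through which the mTORC1 kinase and the RNA-binding protein Larp1 control how much of the mRNA is translated, so a change in protein output need not show in the mRNA level. Skeletal muscle also makes Rpl3l, a muscle paralog that takes the place of Rpl3, and Rpl3 is the form of growing muscle.

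The study asked how near-infrared light given before exercise, called photobiomodulation therapy (PBMT), changes the muscle transcriptome. Poly(A)-selected directional RNA libraries were sequenced from the tibialis anterior muscle of 24 mice in 4 groups of 6. All mice were wild-type C57BL/6J males aged 5 to 7 weeks that were shaved, depilated and anesthetised for 20 min. The PBMT groups received light of 830 nm at 25 mW/cm2 for 20 min, a dose of 30 J/cm2, and the control groups were anesthetised without light. Sedentary control and sedentary PBMT mice rested until muscle was taken 24 h later. Fatigued control and fatigued PBMT mice ran on a treadmill to exhaustion 24 h after the treatment, and their muscle was then taken at once. There was no group that was only warmed or given sham light. Sequencing was done in 1 project for the rested and another for the exhausted mice, so the state of the muscle and the project cannot be told apart.

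Sequencing was deeper in the fatigued than in the sedentary mice. Total counts ran from 43271093 to 46904076 in sedentary controls (median 45278264), from 46327516 to 52775844 in sedentary PBMT mice (median 49421796), from 56792327 to 68726155 in fatigued controls (median 61892168) and from 53122528 to 68566029 in fatigued PBMT mice (median 60228909). In each library between 19938 and 21198 genes had at least 1 count.

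A few libraries stood apart from their groups. Mitochondrially encoded genes took 3.25% of the counts of sedentary control 4, against 15.5% to 17.0% in the other 5 mice of its group. Over the 316 combinations of a tested ribosomal protein gene and a group, 58 had 1 mouse far from the other 5, and sedentary control 4 was that mouse in 37 of them, 29 times as the highest and 8 times as the lowest. Fatigued PBMT 1 was the highest such mouse 13 times. Fatigued PBMT 5 stood apart in the Rpl3l to Rpl3 ratio and in markers of interstitial mesenchymal cells, whose summed level was 4699 CPM (edgeR counts scaled to a common library size, after TMM) there against a group median of 1737. Sedentary PBMT 2 stood apart in Rps4l.

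The 83 genes together took about 1% of the counts. Their share ran from 1.14% to 1.40% in sedentary controls (median 1.22%, mean 1.25% ± 0.0957, SD, n = 6), from 1.06% to 1.23% in sedentary PBMT mice (median 1.13%, mean 1.13% ± 0.0592), from 1.01% to 1.22% in fatigued controls (median 1.13%, mean 1.12% ± 0.0659) and from 1.03% to 1.27% in fatigued PBMT mice (median 1.08%, mean 1.13% ± 0.112). All 4 groups overlapped. Sedentary control 4 had the highest share of its group, and fatigued PBMT 1 and 5 had the highest shares of theirs. The share of mitochondrially encoded genes ran from 13.8% to 17.1% in the sedentary mice other than sedentary control 4 and from 10.5% to 12.9% in the fatigued mice. The share is a value without a test.

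**Figure D1:**
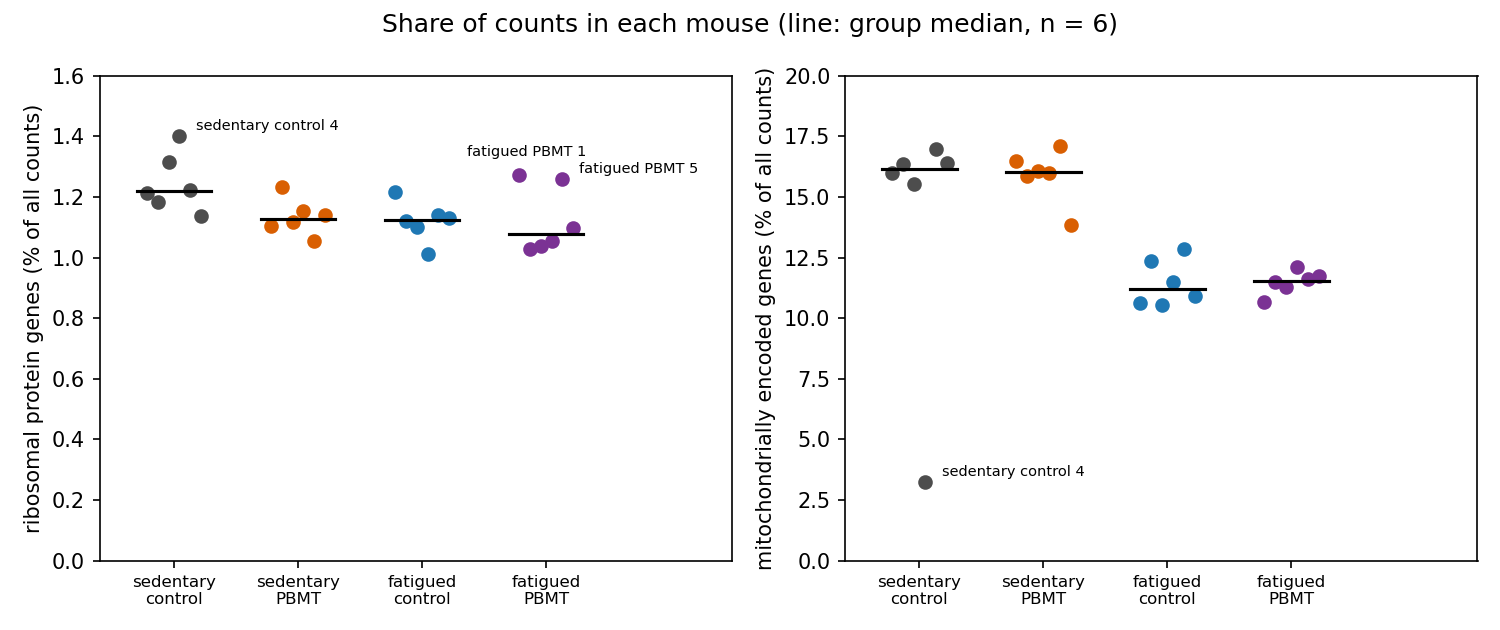
Each point is 1 mouse and each line the median of its group of 6; the vertical axes give the percent of all counts on the 83 ribosomal protein genes (left) and on mitochondrially encoded genes (right). The ribosomal protein shares of all mice lie between 1.01% and 1.40% and the 4 groups overlap, and sedentary control 4 lies at 3.25% for mitochondrially encoded genes.

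Levels between genes were compared as CPM divided by transcript length in kilobases. Over the 79 genes that passed the filter on low counts in every comparison, the median level was 141.5 CPM per kilobase and the middle 50% lay between 96.4 and 208.9. Highest were Rplp1 at 539.5, Rps2 at 457.2 and Rplp0 at 429.5 CPM per kilobase, followed by Rpl3l at 369.1. Rplp1 and Rplp0 belong to the stalk that brings elongation factors to the ribosome, and Rps2 lines the path of the mRNA into the small subunit. Lowest among those tested were Rpl13a at 2.17, Rpl7l1 at 12.5 and Rps15a at 17.3 CPM per kilobase, and the highest level was 249 times the lowest. That span rests on Rpl13a, whose level is uncertain because its transcript overlaps another gene. The place of Rps15a rests on the transcript chosen, which has 5179 bases. With the shortest equally ranked transcript, of 640 bases, it moves from place 77 to place 56, and Rpl22 moves from place 73 to place 28.

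**Figure D2:**
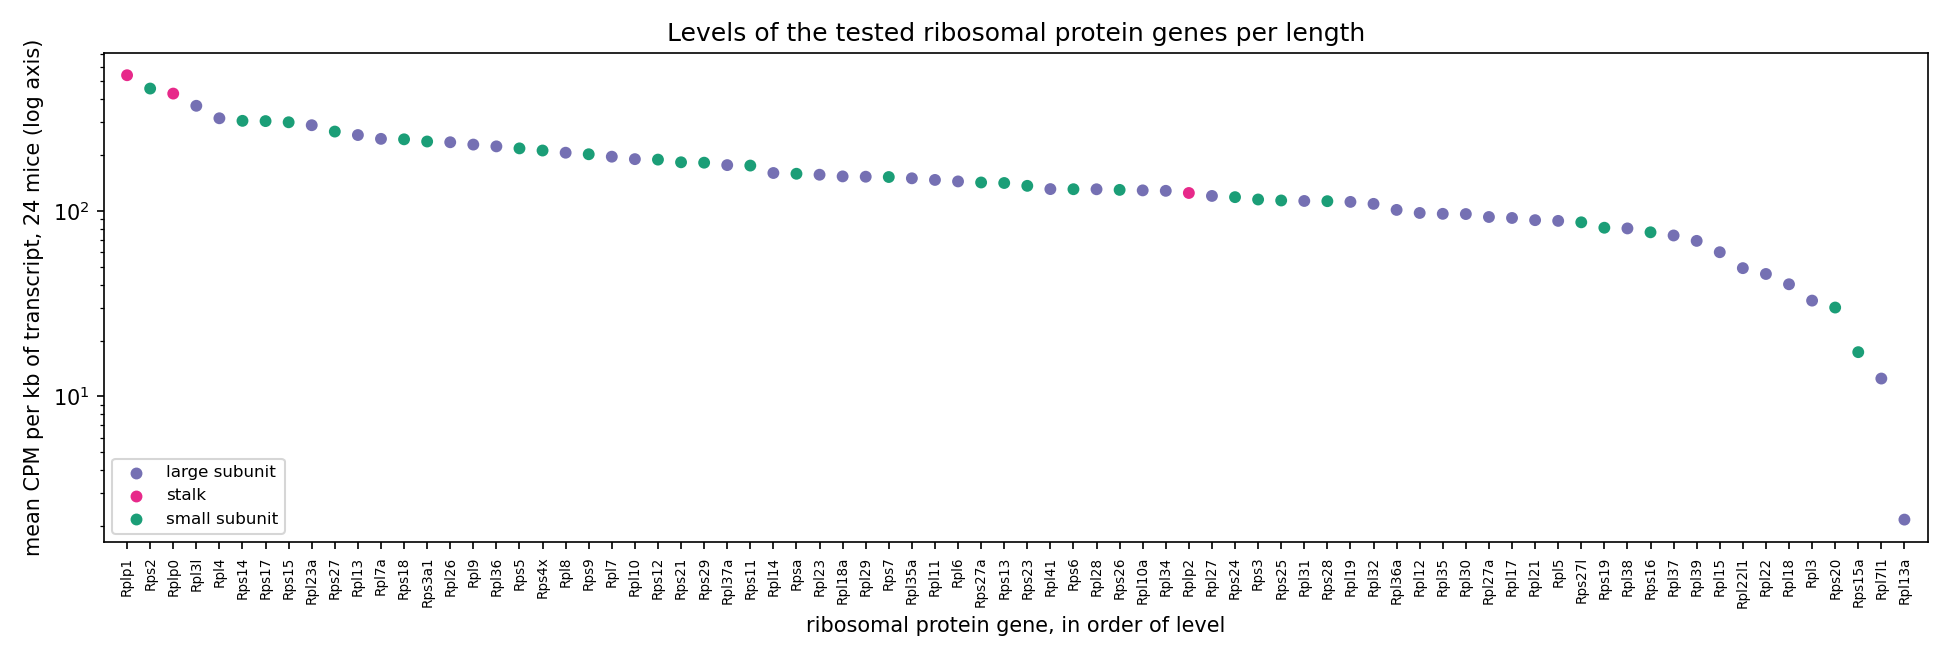
Mean level of tested ribosomal protein genes over 24 mice, in CPM per kilobase on a log axis, ordered from highest to lowest. Levels run from 539.5 (Rplp1) to 2.17 (Rpl13a), and Rpl3l (369.1) lies far above Rpl3 (32.9).

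Counts for some members were close to none. Rpl10l, a paralog of Rpl10 known from the testis, had 0 counts in all 24 mice. Rpl24 had a median of 3 counts, Rpl39l, a testis paralog of Rpl39, 4.5, and Rps10 7.5, so that these 4 were under the filter and were not tested. The proteins of Rpl24 and Rps10 are ordinary parts of the ribosome. Their transcripts share 71.5% and 53.6% of their bases on the same strand with Gm28037 and RPS10-NUDT3, and Rpl13a shares 59.3% with Gm45713; these overlapping genes had 0 counts in all mice. How the counting treated reads from such shared stretches is not stated, so the levels of Rpl24, Rps10 and Rpl13a are uncertain.

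Ribosomal protein genes also have many processed copies in the genome. For 75 of the 83 genes at least 1 stretch of 100 bases occurred unchanged in another annotated gene, with a median of 31.3% of such stretches, and 25 genes had more than 50% shared. Rpl3 shared 79.4% of its stretches with 7 other genes and Rps27 98.4% with 2, whereas Rpl3l and Rps21 shared none. Counts on the 300 annotated copies named after a ribosomal protein gene (-ps genes) were 0.397% to 0.552% of the counts on the members in sedentary controls (median 0.426%), 0.392% to 0.425% in sedentary PBMT mice (median 0.406%), 0.298% to 0.335% in fatigued controls (median 0.313%) and 0.307% to 0.338% in fatigued PBMT mice (median 0.326%). The sedentary and the fatigued mice did not overlap. Whether reads moved between members and copies was not tested.

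The muscle identity of the samples was plain in the markers. The 8 muscle fibre markers summed to 89979 to 131076 CPM in sedentary controls (median 102255), 96745 to 119293 in sedentary PBMT mice (median 115267), 120287 to 155357 in fatigued controls (median 147357) and 124976 to 156378 in fatigued PBMT mice (median 142014). Myh4, the heavy chain of the fastest fibres, was the most abundant at 37924 CPM. The 8 interstitial mesenchymal markers, led by Col1a2 at 430.6 CPM, summed to medians of 1177, 838.5, 1882 and 1737 CPM in the same order of groups. Of the 4 keratinocyte markers Krt5, Krt14 and Krt1 had a median count of 0. The 4 summed to 25.48 CPM in sedentary PBMT 4 and 9.153 in sedentary PBMT 2, against 1.156 to 5.266 in the other mice. In a bulk sample, fewer cells of a type and less RNA per cell cannot be told apart.

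The question of the comparison of PBMT with control in sedentary muscle was whether light alone altered the ribosomal protein mRNAs 24 h later. No ribosomal protein gene passed the test. Most estimates nevertheless lay slightly below 0: 69 of 79 were negative, the median log2 fold change was -0.07, and 50% of the genes lay between -0.15 and -0.03. Over all genes tested the median was -0.00. The large subunit without the stalk and the small subunit had the same median of -0.07.

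The lowest p-values in this comparison belonged to members of both subunits. Rps12, a protein of the head of the small subunit, measured 106.6 to 137.7 CPM in sedentary controls (median 117.5) and 94.8 to 110.4 CPM in sedentary PBMT mice (median 101.3). Rps20, also in the head, measured 107.8 to 216.3 CPM (median 126.6) and 98.4 to 121.3 CPM (median 107.8). Rps16, whose tail touches the peptidyl tRNA, measured 82.4 to 106.1 CPM (median 84.5) and 76.3 to 81.6 CPM (median 77.8). The groups did not overlap for Rps16, and they overlapped for Rps12 and Rps20. Rpl35a, a large subunit gene mutated in some patients with Diamond-Blackfan anaemia, measured 80.0 to 96.7 CPM (median 89.8) and 73.8 to 88.5 CPM (median 78.9). Rpl22l1, the paralog of Rpl22, measured 30.9 to 35.4 CPM (median 32.5) and 26.6 to 31.0 CPM (median 29.3). Both overlapped between the groups, Rpl22l1 through its lowest control and its highest PBMT mouse.

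In log2 fold change, Rps12 was at -0.23 (SE 0.0665, adjusted p = 0.349), Rpl22l1 at -0.17 (SE 0.0611, adjusted p = 0.58), Rps16 at -0.17 (SE 0.0644, adjusted p = 0.598), Rpl35a at -0.16 (SE 0.0639, adjusted p = 0.599) and Rps20 at -0.33 (SE 0.13, adjusted p = 0.609). The members with positive estimates and the lowest p-values were Rpl13a at 0.11, Rps27 at 0.04, Rpl28 at 0.04, Rpl7a at 0.01 and Rps4x at 0.01, of which Rps27, Rpl28, Rpl7a and Rps4x turn negative when libraries are scaled by total counts. None of these 10 passed. Without sedentary control 4, which had the highest Rps20 of its group (216.3 CPM, against 107.8 to 138.6 in the other 5), Rps20 was at -0.16 and Rps16 at -0.11. Without the same mouse the values were -0.014 for Rps27, -0.045 for Rpl28 and -0.029 for Rps4x, and without sedentary PBMT 6 Rps4x was at -0.0034. Without sedentary PBMT 3 Rpl13a was at -0.0029, and without sedentary PBMT 4 Rpl7a was at -0.0031.

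By edgeR's quasi-likelihood test, 0 of 79 members passed a Benjamini-Hochberg adjusted p of 0.05, where 4 of 14177 genes (0.0282%) did. DESeq2 and limma voom with quality weights also called 0 members, against 0.367% and 0.353% of all genes. At an unadjusted p under 0.05, 0 members were higher, against 3.33% of all genes, and 9 were lower, against 4.3%. With 1 mouse left out the 9 became 19 without sedentary control 6 (5.8% of all genes), 5 without sedentary control 5 (4.23%), sedentary PBMT 3 (3.37%) or sedentary PBMT 6 (3.77%), and 4 without sedentary PBMT 5 (3.56%).

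Ribosomal protein mRNAs are short, and the estimates of all genes followed transcript length in this comparison. The Spearman rho between length and log2 fold change was 0.33 across 14165 genes, a description of 1 set of libraries since genes are not independent replicates. Across the 79 members alone the rho was 0.02. In the shortest of 10 bins, of 55 to 1002 bases, the median over all genes was -0.11, and the 49 members in it had a median of -0.07. In the longest bin the median over all genes was 0.10. With the trend on length removed from each library, the members' median was 0.00, with 40 positive and 39 negative. The trend on GC content had a rho of -0.32, and with it removed the members' median was -0.07. What made the trend was not tested.

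**Figure D3:**
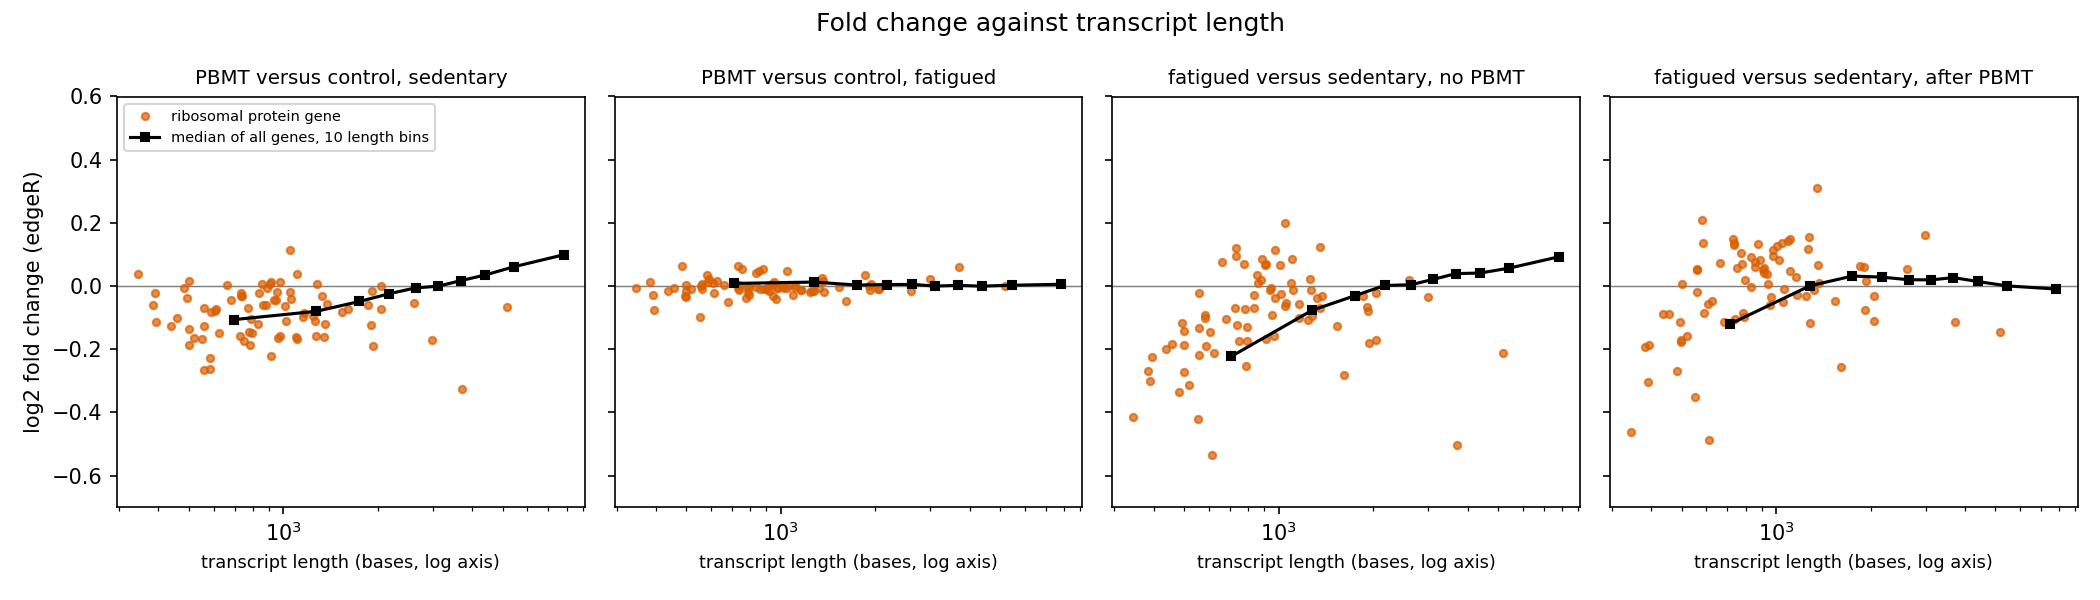
Log2 fold change against transcript length in bases (log axis) in 4 comparisons; points are the 79 tested ribosomal protein genes and squares the medians of all genes in 10 bins of length. In sedentary muscle the bins run from -0.11 to 0.10 and in fatigued versus sedentary muscle without PBMT from -0.22 to 0.09, while in fatigued muscle the highest bin is at 0.01.

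In fatigued muscle no ribosomal protein gene passed for PBMT against control. The estimates of the 79 members lay between -0.10 (Rpl22l1) and 0.06 (Rpl36a), and 32 were positive and 47 negative. Their median was -0.01, against 0.00 over all genes, and it turns to 0.01 when libraries are scaled by total counts. For Rpl36a, fatigued PBMT 5 was at 56.6 CPM and the rest of its group at 38.7 to 49.8 CPM. The comparison asked whether earlier light altered the mRNAs of muscle that had just been exhausted. It cannot tell the light apart from the longer runs of the PBMT mice.

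The members with the lowest p-values were again from both subunits. On the higher side were Rps20 (log2 fold change 0.06, SE 0.058), Rpl10a of the stalk that releases spent tRNA (0.06, SE 0.0619), Rpl10 near the peptidyl transferase site (0.05, SE 0.0599), Rpl19 (0.05, SE 0.0688) and Rps6, the target of S6 kinase (0.05, SE 0.0744). On the lower side were Rps21 (-0.07, SE 0.0787), Rps26 at the exit of the mRNA (-0.05, SE 0.0641), Rpl22l1 (-0.10, SE 0.125), Rps24 (-0.05, SE 0.075) and the stalk protein Rplp2 (-0.04, SE 0.0779). All 10 had an adjusted p of 1.0 and groups that overlapped. Rplp2 was at 0.0048 without fatigued control 1. The others kept their sign with each mouse left out, while several shrank and Rps21 grew. Rpl10 was at 0.02 without fatigued control 5 and Rpl10a at 0.04 without fatigued PBMT 5. Also without fatigued PBMT 5, Rpl22l1 was at -0.02 and Rps6 at 0.01. Without fatigued PBMT 1, Rps20 was at 0.02, Rpl19 at 0.01 and Rps21 at -0.15. Rpl22l1 was at -0.18 without fatigued PBMT 1, Rps24 at -0.01 without fatigued PBMT 4, and Rps26 at -0.03 without fatigued PBMT 6.

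By edgeR, 0 of 79 members passed, and 0 of 14574 genes (0.0%) did. DESeq2 called 0 members and 0.00716% of all genes, and limma voom called 0 members and 0.0% of all genes. At an unadjusted p under 0.05, 0 members were higher and 0 lower, against 1.08% and 0.501% of all genes, and without fatigued PBMT 1 the count lower was 1, against 1.02%. The members' median was positive without fatigued control 1, 2 or 6 or without fatigued PBMT 2, 3, 4 or 6, with a range of -0.05 to 0.02 over the 12 mice left out. Length and GC content carried little trend here, with a rho of -0.02 and 0.07 across 14560 genes.

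The difference between these PBMT effects was tested by itself, over all 24 mice. It also holds the difference in length of run between the fatigued groups. Of the 79 members 68 had a positive difference (fatigued minus sedentary) and 11 a negative one, and the median was 0.08, against 0.02 over all genes. Rps20 had a difference of 0.40 (SE 0.157, adjusted p = 0.946) and Rps12 of 0.24 (SE 0.115, adjusted p = 0.946), the members with the lowest p-values. Rpl10a followed at 0.23 (SE 0.113), and on the negative side were Rps27 at -0.04, Rpl7a at -0.02 and Rpl28 at -0.03, which all 3 turn positive under scaling by total counts. Without sedentary control 4 Rps20 was at 0.22 and Rpl10a at 0.12, and Rps27 and Rpl28 were positive, at 0.0039 and 0.0453.

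No member passed the test of the difference. By edgeR 0 of 79 were called, against 1 of 15108 genes (0.00662%). DESeq2 called 0 members and 0.00334% of all genes, and limma voom 0 members and 0.00662%. At an unadjusted p under 0.05, 2 members were higher, against 2.95%, and 0 were lower, against 1.45%. With 1 mouse left out the count of 2 became 7 (sedentary control 6, against 3.66% of all genes), 5 (fatigued PBMT 4 or sedentary PBMT 2, against 3.15% and 4.04%), 4 (fatigued PBMT 2 or sedentary control 2, against 3.2% and 3.24%) or 1 (against 2.12% to 3.56%; fatigued control 4 or 5, fatigued PBMT 1 or 5, sedentary control 4, or sedentary PBMT 1, 3, 5 or 6). The median was 0.02 without fatigued PBMT 1, 0.05 without sedentary control 4, and 0.05 without sedentary control 4 and fatigued PBMT 5 together, a setting chosen after seeing the data. With the trend on length removed it was -0.02, and limma voom gave 0.00.

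Fatigued and sedentary muscle without PBMT differed more. 11 of 79 ribosomal protein genes fell, against 7.16% of all genes, and none rose, against 9.36%. They were Rplp1 of the stalk, Rpl22l1, Rpl35a, Rpl36a and Rpl39 of the large subunit, and Rps15a, Rps20, Rps21, Rps24, Rps27 and Rps29 of the small subunit, with log2 fold changes from -0.21 (Rps15a) to -0.54 (Rpl39). Over the 79 members 61 estimates were negative and 18 positive, with a median of -0.08 against -0.00 over all genes. These values describe the libraries of 2 projects as much as 2 states of the muscle.

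Rpl39, a small protein in the wall of the tunnel through which the new chain leaves, measured 34.7 to 58.5 CPM in sedentary controls (median 52.6) and 33.4 to 37.4 CPM in fatigued controls (median 34.5). Rps27 of the small subunit measured 88.2 to 112.1 CPM (median 107.5) and 68.5 to 88.8 CPM (median 77.9). Rpl22l1 measured 30.9 to 35.4 CPM (median 32.5) and 20.6 to 29.9 CPM (median 23.7). For Rpl39 and Rps27 the groups overlapped through sedentary control 4 alone, and for Rpl22l1 they did not overlap. Rpl35a measured 80.0 to 96.7 CPM (median 89.8) and 67.5 to 76.3 CPM (median 71.7). Rps20 measured 107.8 to 216.3 CPM (median 126.6) and 93.8 to 102.7 CPM (median 96.2). Neither gene overlapped between the groups.

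The fall was clearest in these genes. Rpl39 fell by 0.54 on the log2 scale (SE 0.103, edgeR adjusted p = 0.00247), Rpl35a by 0.31 (log2 fold change -0.31, SE 0.0607, adjusted p = 0.00261) and Rpl22l1 by 0.42 (log2 fold change -0.42, SE 0.0817, adjusted p = 0.00266). Rps27 was at -0.42 (SE 0.0818, adjusted p = 0.00293), Rps24 at -0.28 (SE 0.0638, adjusted p = 0.00736), Rplp1 at -0.27 (SE 0.0689, adjusted p = 0.0138), Rps20 at -0.50 (SE 0.131, adjusted p = 0.0165) and Rps29 at -0.30 (SE 0.0801, adjusted p = 0.0187). These 8 passed with each of the 12 mice left out in turn, Rps20 at -0.34 without sedentary control 4. On removal of the length trend only Rps24 (-0.25) and Rps20 (-0.55) of these 8 still passed. Rpl39 was then at -0.27 and Rpl22l1 at -0.12. In that fit Rplp1 was at 0.0575, Rps29 at 0.0977, Rpl35a at 0.0059 and Rps27 at 0.0054. Rps21 (-0.22, adjusted p = 0.0262) did not pass without fatigued control 4 or sedentary control 5, with an adjusted p of up to 0.0571. Rps15a (-0.21, adjusted p = 0.029) did not pass without fatigued control 2 or 4 or sedentary control 2 or 5, with an adjusted p of up to 0.0651. Rpl36a (-0.34, adjusted p = 0.0363) passed only without sedentary control 4 or without fatigued control 1, and reached an adjusted p of 0.0771 without sedentary control 3. The members with the lowest p-values on the higher side, Rpl27 at 0.12, Rps4x at 0.11 and Rpl29 at 0.10, did not pass, and without sedentary control 4 Rpl27 and Rps4x were both at 0.07.

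By edgeR 11 of 79 members were lower, against 7.16% of all genes, and 0 were higher, against 9.36%. At an unadjusted p under 0.05, 19 were lower, against 15.0%, and 0 higher, against 16.0%. DESeq2 called 12 lower, against 8.28%, and 0 higher, against 9.93%. Limma voom called 14 lower, against 15.8%, and 1 higher, against 16.4%. Without sedentary control 4, 20 members were lower, against 13.5% of all genes in that fit. The split of all called genes depended on the scaling: 1341 higher and 1025 lower with TMM, 991 and 1707 with total counts, and 1142 and 1351 with upper-quartile factors. Total counts gave 17 members lower, against 11.9% of all genes, so the direction of the members' calls held while their number did not.

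Length mattered more than scaling. The rho between length and log2 fold change was 0.25 across 14309 genes and 0.38 across the 79 members. The shortest bin had a median of -0.22 over all genes and of -0.12 over its 49 members. With the trend on length removed, 10 members were higher, against 8.63% of all genes, and 3 were lower, against 7.55%, and the members' median was 0.09. The 3 that stayed lower were Rps15a (-0.27), Rps24 (-0.25) and Rps20 (-0.55), whose chosen transcripts of 5179, 1613 and 3706 bases are long for this family. Rps21 turned from lower to higher (0.17, adjusted p = 0.0424). Also higher were Rpl27 (0.33), Rpl29 (0.30), Rps18 (0.28), Rps19 (0.27), Rpl30 (0.24), Rps4x (0.24), Rpl7a (0.22) and Rpl14 (0.19). With the shortest equally ranked transcripts, a choice made after seeing the data, 7 were higher, against 8.52% of all genes, and 3 lower, against 7.62%. The direction of the family between the states therefore depended on whether the length trend was removed, and whether that trend came from the muscle or from the libraries was not tested.

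After PBMT, 7 ribosomal protein genes were lower in fatigued than in sedentary muscle and none was higher, out of 79 tested, against 12.7% of all genes lower and 14.2% higher. They were Rpl39, Rpl36a and Rpl22l1 of the large subunit and Rps27, Rps29, Rps24 and Rps27l of the small subunit. The family as a whole did not lean: 42 estimates were positive and 37 negative, with a median of 0.01 against 0.00 over all genes, which turns to -0.01 under scaling by total counts and to -0.03 with upper-quartile factors. The 2 comparisons of states share no mice but set the same 2 sequencing projects against each other. Of the lists called in them 6 genes were common, 6 of the 11 found without PBMT and 6 of the 7 found after it. Of all 14123 genes tested in both, 656 (4.64%) were lower in both, which is 65.3% of the 1005 lower without PBMT and 36.1% of the 1817 lower after it. The call of Rps27l was the 1 found after PBMT alone with all libraries; without sedentary control 4 Rps27l was also lower without PBMT (-0.22, adjusted p = 0.00435).

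Rpl39 measured 44.2 to 54.6 CPM in sedentary PBMT mice (median 48.2) and 29.6 to 40.3 CPM in fatigued PBMT mice (median 33.9). Rps27 measured 100.6 to 113.7 CPM (median 108.0) and 71.2 to 97.3 CPM (median 74.5). Rps29, a zinc-binding protein of the head, measured 68.8 to 85.4 CPM (median 79.0) and 53.1 to 72.3 CPM (median 63.4). Rpl39 and Rps27 did not overlap between the groups, and Rps29 did. Rps24, also mutated in some patients with Diamond-Blackfan anaemia, measured 197.1 to 208.9 CPM (median 206.0) and 148.8 to 196.7 CPM (median 167.6), without overlap.

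In log2 fold change, Rpl39 was at -0.49 (SE 0.0745, adjusted p = 0.000375), Rps27 at -0.46 (SE 0.0726, adjusted p = 0.000451), Rps29 at -0.31 (SE 0.0806, adjusted p = 0.012) and Rps24 at -0.26 (SE 0.0689, adjusted p = 0.0136). These 4 passed with each of the 12 mice left out in turn. On removal of the length trend Rpl39 and Rps24 still passed, while Rps27 (-0.163, adjusted p = 0.0791) and Rps29 (-0.0297, adjusted p = 0.726) did not. Rpl22l1 (-0.35, adjusted p = 0.0271) did not pass without fatigued PBMT 3 or 4 or sedentary PBMT 3, with an adjusted p of up to 0.056. Rpl36a (-0.27, adjusted p = 0.0363) passed in 3 of the 12 settings, those without fatigued PBMT 1 or 5 or sedentary PBMT 1, and reached 0.0819 without sedentary PBMT 3. Rps27l (-0.18, adjusted p = 0.0382) passed in 3 of the 12, those without fatigued PBMT 1 or sedentary PBMT 1 or 5, and reached 0.0848 without fatigued PBMT 6. On the higher side Rpl41, the smallest of the ribosomal proteins, was at 0.21 (SE 0.0773, adjusted p = 0.0579), Rpl3 at 0.31 (SE 0.119, adjusted p = 0.067) and Rpl10a at 0.15 (SE 0.0583, adjusted p = 0.0696), and none of the 3 passed. They passed with some mice left out: Rpl41 without fatigued PBMT 2 (0.24), fatigued PBMT 6 (0.23) or sedentary PBMT 2 (0.25), Rpl10a without fatigued PBMT 2 (0.18) and Rpl3 without fatigued PBMT 4 (0.36). All 3 passed in DESeq2. Without fatigued PBMT 5 Rpl3 was at 0.17 (adjusted p = 0.0628).

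By edgeR 7 of 79 members were lower, against 12.7% of all genes, and 0 were higher, against 14.2%. At an unadjusted p under 0.05, 12 were lower, against 18.9%, and 7 higher, against 20.3%. DESeq2 called 7 lower and 4 higher, against 12.1% and 14.8%, and limma voom 13 lower and 0 higher, against 16.0% and 16.7%. Without fatigued PBMT 1 the count lower was 17, against 12.6% of all genes in that fit, and without fatigued PBMT 3, fatigued PBMT 4 or sedentary PBMT 3 it was 4, against 11.3%, 12.0% and 10.2%. The count higher was 3 without fatigued PBMT 2 (14.1% of all genes), 2 without fatigued PBMT 4 (13.3%) or sedentary PBMT 2 (14.5%), and 1 without fatigued PBMT 6 (13.1%). The median was -0.03 without fatigued PBMT 1, -0.00 without fatigued PBMT 5 or sedentary PBMT 1, and -0.01 without sedentary PBMT 5 or 6.

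The trend on length was weaker here over all genes, with a rho of 0.06 across 14311 genes and of 0.29 across the members, and the trend on GC content had a rho of 0.34. With the trend on length removed, 20 members were higher, against 15.2% of all genes, and 2 were lower, against 13.6%, and the median was 0.09. Rps24 (-0.27) and Rpl39 (-0.32) stayed lower. The largest values on the higher side were Rpl41 at 0.39, Rpl3 at 0.31 and Rps12 at 0.31. With the shortest equally ranked transcripts 22 were higher, against 15.0%, and 3 lower, against 13.6%. Rps24 was lower in both comparisons of states whether or not the length trend was removed. Its chosen transcript of 1613 bases is long for this family and is also its shortest equally ranked one. Both length fits therefore move Rps24 little and cannot show that its call is free of length.

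Some cell type markers also passed between the states, where 9.36% of all genes were higher without PBMT and 14.2% after it. Of the 8 muscle fibre markers 3 were higher without PBMT and 3 after it, Myh4 by 0.87 and 0.66 on the log2 scale. Of the 8 interstitial mesenchymal markers 4 and 5 were higher, Col1a1 by 1.11 and 1.70, and of the 4 tendon markers 1 was higher in each, Thbs4 by 1.13 and 1.34. The 6 macrophage and leukocyte markers, led by Lyz2 at 34.5 CPM, had a summed median of 55.0 CPM in sedentary controls, 37.5 in sedentary PBMT mice, 68.6 in fatigued controls and 59.7 in fatigued PBMT mice, and 1 was higher without PBMT (Csf1r, 0.54) and 2 after it (Csf1r, 1.13, and C1qa, 1.38). Without PBMT the endothelial Cldn5 (0.57) and the adipocyte Cidec (1.31) were also higher. After PBMT the endothelial Pecam1 (0.40) and, of the satellite cell markers, Vcam1 (0.42) and Chrdl2 (0.75) were higher, while Pax7 (-0.67) and the keratinocyte Krt10 (-1.52) were lower. Krt10 was at -0.80 without sedentary PBMT 4, where it did not pass (adjusted p = 0.0731), and it passed in 4 of the 12 settings with 1 mouse left out. Chrdl2 passed in 3 of 12, and without PBMT Csf1r and Cidec passed in 4 and Cldn5 in 6. Col1a1 was at 1.13 after PBMT without fatigued PBMT 5. The 4 tendon markers, led by Fmod at 120.2 CPM, summed to medians of 152.4, 159.5, 315.7 and 289.6 CPM in the same order. The part of these cells in the ribosomal protein result was not tested.

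Rpl3 and Rpl3l encode alternative forms of the same protein, which reaches into the peptidyl transferase centre. Rpl3l, the form of adult striated muscle, measured 479.9 to 609.2 CPM in sedentary controls (median 509.9), 475.4 to 509.3 in sedentary PBMT mice (median 502.4), 468.2 to 531.0 in fatigued controls (median 510.9) and 444.6 to 564.9 in fatigued PBMT mice (median 498.7). Rpl3 measured 37.9 to 52.1 CPM (median 42.5), 36.7 to 41.0 (median 38.6), 37.9 to 52.6 (median 48.6) and 38.8 to 71.2 (median 44.8) in the same order. Per kilobase Rpl3l was 4th and Rpl3 75th of the 79. All groups overlapped for both genes, and fatigued PBMT 5 had the highest Rpl3. The genes are Rpl3 (ENSMUSG00000060036, chr15:80077791-80091868, minus strand) and Rpl3l (ENSMUSG00000002500, chr17:24727820-24736143, plus strand) on GRCm38.

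Rpl3l did not pass in any comparison, with log2 fold changes of -0.06 and -0.02 for PBMT in sedentary and fatigued muscle and of -0.03 and 0.01 for fatigued against sedentary muscle without and after PBMT. Rpl3 was at -0.16 (adjusted p = 0.648), 0.03 (adjusted p = 1.0), 0.12 (adjusted p = 0.379) and 0.31 (adjusted p = 0.067) in the same comparisons. The value of Rpl3 for PBMT in fatigued muscle was -0.12 without fatigued PBMT 5 and -0.03 without fatigued control 4. With the trend on length removed Rpl3 passed after PBMT (0.31, adjusted p = 0.0474), as it did in DESeq2 and without fatigued PBMT 4 (0.36). Without fatigued PBMT 5 that value was 0.17 (adjusted p = 0.0628).

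The ratio of Rpl3l to Rpl3 within each mouse needs no scaling between libraries. The log2 ratio ran from 3.32 to 3.86 in sedentary controls (median 3.59), from 3.54 to 3.79 in sedentary PBMT mice (median 3.71), from 3.18 to 3.76 in fatigued controls (median 3.39) and from 2.64 to 3.62 in fatigued PBMT mice (median 3.55). The lowest value, 2.64, was fatigued PBMT 5, and the other 5 of its group lay between 3.47 and 3.62. PBMT differed from control by 0.10 in sedentary muscle (exact permutation p = 0.277, adjusted over 4 comparisons 0.369) and by -0.02 in fatigued muscle (exact permutation p = 0.933, adjusted 0.933). Fatigued differed from sedentary muscle by -0.15 without PBMT (exact permutation p = 0.251, adjusted 0.369) and by -0.28 after it (exact permutation p = 0.0173, adjusted 0.0693). None passed; the tests were two-sided over 924 arrangements, of which the smallest p is 0.00216.

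With 1 mouse left out the PBMT difference in sedentary muscle was 0.05 without sedentary control 3 and 0.16 without sedentary control 4, and that between the states without PBMT was -0.09 without sedentary control 4 and -0.21 without fatigued control 4. The difference after PBMT was in part that of 1 mouse. Without fatigued PBMT 5 it was -0.12 (exact permutation p = 0.0541, adjusted 0.216), and without fatigued PBMT 1 it was -0.32 and passed (exact permutation p = 0.0108, adjusted 0.0433). In fatigued muscle the PBMT difference turned positive without fatigued PBMT 5 (0.13), fatigued control 2 (0.0071) or fatigued control 4 (0.0396). The difference of the PBMT effects on the ratio, fatigued minus sedentary, was -0.13 and was not tested. Rpl3 shares most of its stretches of 100 bases with other annotated genes and Rpl3l shares none, so the ratio also depends on how reads from shared stretches were counted. The mesenchymal markers of fatigued PBMT 5 summed to 4699 CPM and its macrophage and leukocyte markers to 144.6 CPM, each the highest of its group, and their part in its Rpl3 level was not tested.

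**Figure D4:**
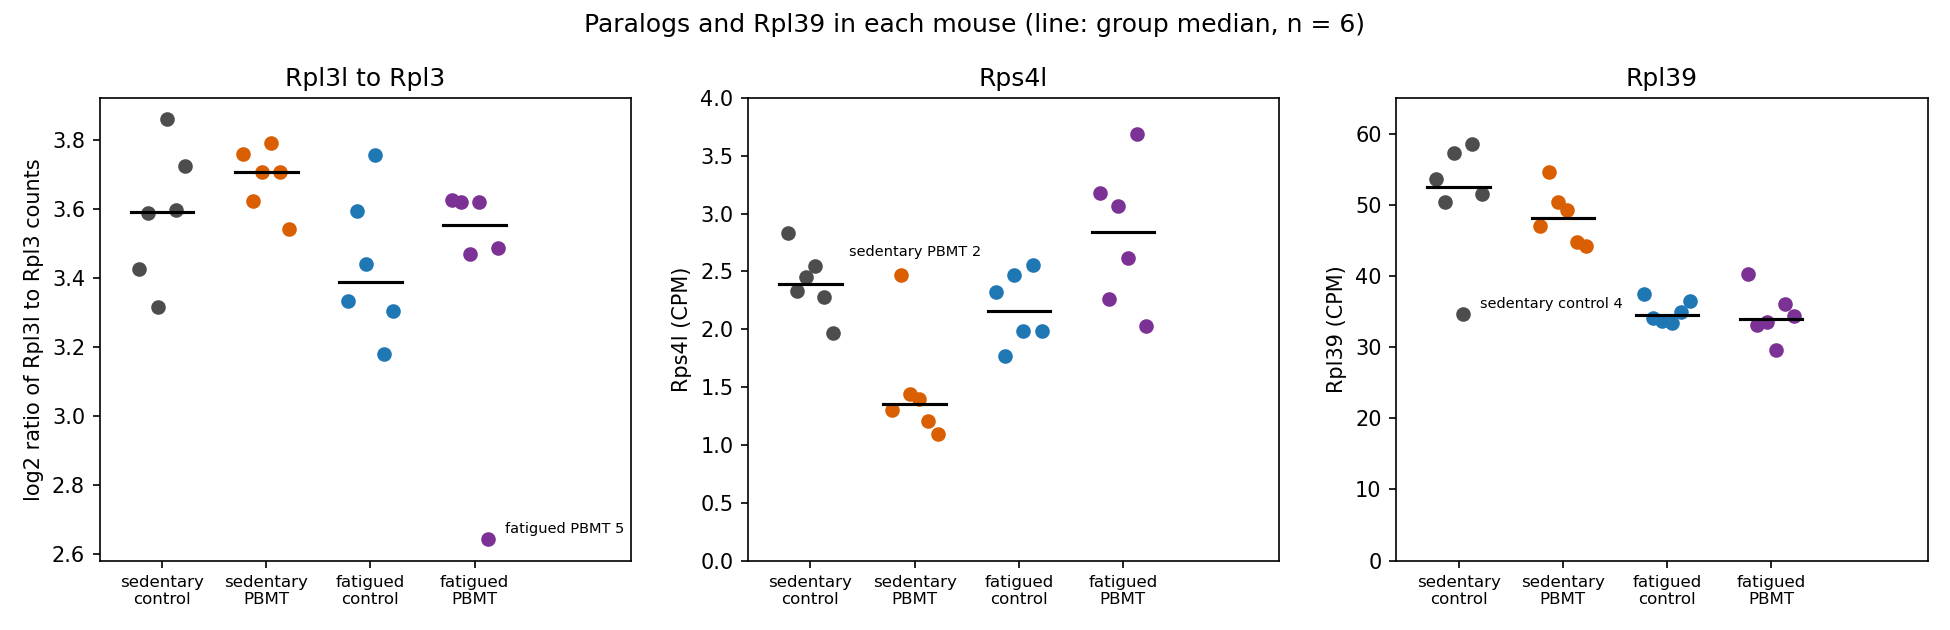
Log2 ratio of Rpl3l to Rpl3 counts (left), CPM of Rps4l (middle) and CPM of Rpl39 (right) in each of 24 mice; points are mice and lines the medians of the groups of 6. Fatigued PBMT 5 lies at a ratio of 2.64, 5 of 6 sedentary PBMT mice have Rps4l between 1.09 and 1.44 CPM, below every other mouse, and sedentary control 4 has Rpl39 at 34.7 CPM.

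Rps4x, the X-linked gene of a small subunit protein, was expressed at 211.8 CPM per kilobase and Rps4l, its retrogene relative, at 2.35. Rps4x had a median of 201.9 CPM in sedentary controls, 199.6 in sedentary PBMT mice, 212.2 in fatigued controls and 204.2 in fatigued PBMT mice, and it passed in none of the 5 comparisons with all libraries and TMM scaling alone. Rps4l measured 1.96 to 2.84 CPM in sedentary controls (median 2.39), 1.09 to 2.47 in sedentary PBMT mice (median 1.35), 1.77 to 2.56 in fatigued controls (median 2.16) and 2.03 to 3.69 in fatigued PBMT mice (median 2.84). Sedentary PBMT 2, at 2.47 CPM, lay within the range of the controls and the other 5 mice of its group lay below it.

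For PBMT in sedentary muscle Rps4l was at -0.69 (SE 0.188, edgeR adjusted p = 0.349), lower than every control in 5 of 6 mice. It did not pass in edgeR or in DESeq2 (adjusted p = 0.0715), and it passed in limma voom (adjusted p = 0.0283) and in edgeR without sedentary PBMT 2 (-0.89, adjusted p = 0.0398). In fatigued muscle its PBMT difference was 0.36 (SE 0.162, adjusted p = 1.0). The difference of the PBMT effects was 1.05 (SE 0.249, adjusted p = 0.43), and 1.25 with an adjusted p of 0.0277 without sedentary PBMT 2. Fatigued against sedentary muscle was at -0.13 (adjusted p = 0.561) without PBMT and rose by 0.92 (SE 0.209, adjusted p = 0.00509) after PBMT, which passed with each of the 12 mice left out (adjusted p up to 0.0151). Its gene (ENSMUSG00000063171) lies at chr6:148354656-148355598 on the plus strand and shared 1.66% of its stretches of 100 bases, with 1 gene. Rps4l was chosen with earlier results of these data known.

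The other paralog pairs showed no shared pattern. Rps27 and Rps27l encode forms of a small subunit protein, the second induced by p53. Per kilobase they stood at 268.0 and 86.8 CPM. Rps27l measured 34.0 to 51.3 CPM in sedentary controls (median 47.1), 44.1 to 48.2 in sedentary PBMT mice (median 45.8), 39.6 to 42.1 in fatigued controls (median 41.3) and 37.5 to 46.4 in fatigued PBMT mice (median 40.4). The groups overlapped in each comparison, between the states without PBMT through sedentary control 4 (34.0 CPM) alone. Rps27 fell in both comparisons of states. Rps27l was at -0.14 without PBMT (adjusted p = 0.281), and at -0.22 there without sedentary control 4 (adjusted p = 0.00435). After PBMT Rps27l was at -0.18 (adjusted p = 0.0382). On removal of the length trend Rps27 was at 0.0054 without PBMT (adjusted p = 0.977) and at -0.163 after it (adjusted p = 0.0791). Rps27l was then at 0.0387 after PBMT (adjusted p = 0.56), so none of these calls passed in that fit.

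Rpl22 and Rpl22l1, which regulate each other's expression in some cells, stood at 45.7 and 49.2 CPM per kilobase. That nearness rests on the transcript chosen: with the shortest equally ranked transcripts, of 474 bases for Rpl22 and 552 for Rpl22l1, Rpl22 was at 197.8 CPM per kilobase. Rpl22 measured 95.2 to 113.6 CPM in sedentary controls (median 98.8), 87.5 to 100.5 in sedentary PBMT mice (median 96.7), 79.4 to 100.4 in fatigued controls (median 90.1) and 79.2 to 107.4 in fatigued PBMT mice (median 86.2), with overlap throughout. Its log2 fold change between the states was -0.17 without PBMT (adjusted p = 0.107) and -0.11 after it (adjusted p = 0.255). Rpl22l1 fell in both, and with the trend on length removed it was at -0.12 and -0.16 and passed in neither.

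Rpl7 and Rpl7l1 stood at 196.2 and 12.5 CPM per kilobase. Rpl7l1 is named for its likeness to Rpl7. Rpl7 medians were 230.4, 228.2, 226.4 and 220.3 CPM in the order of groups given above, and those of Rpl7l1 were 31.7, 31.1, 33.3 and 33.0 CPM. Neither passed in any of the 5 comparisons, with log2 fold changes between -0.10 and 0.08. Rpl10, at 190.3 CPM per kilobase, and Rpl39 far exceeded the paralogs Rpl10l and Rpl39l, which were at 0 counts and at a median of 4.5 counts.

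The stalk proteins Rplp1 and Rplp2 bind as pairs to Rplp0 and draw elongation factors to the ribosome. Rplp0 measured 564.6 to 646.0 CPM in sedentary controls (median 604.5), 523.1 to 616.2 in sedentary PBMT mice (median 547.6), 552.3 to 602.4 in fatigued controls (median 580.7) and 546.9 to 637.9 in fatigued PBMT mice (median 576.5). Rplp1 measured 279.4 to 336.3 (median 301.3), 257.3 to 296.0 (median 275.3), 220.3 to 276.7 (median 252.6) and 228.0 to 300.3 CPM (median 235.9). Rplp2 medians were 124.3, 117.2, 114.3 and 113.4 CPM. Sedentary and fatigued controls did not overlap for Rplp1 and overlapped for the other stalk genes. Rplp1 passed only between states without PBMT; after it the value was -0.17 (adjusted p = 0.0936), and with the trend on length removed it was 0.06 without PBMT.

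Rpsa, a small subunit protein that is also known as the laminin receptor, measured 293.5 to 443.6 CPM in sedentary controls (median 322.8), 270.3 to 324.1 in sedentary PBMT mice (median 292.1), 274.2 to 329.5 in fatigued controls (median 291.1) and 272.6 to 340.6 in fatigued PBMT mice (median 299.0). Sedentary control 4 held the highest value, against 293.5 to 334.5 CPM in the rest of its group. Rpsa passed in none of the 5 comparisons, with -0.19 for PBMT in sedentary muscle (adjusted p = 0.648) and 0.01 in fatigued muscle. The value of -0.19 includes sedentary control 4.

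Of the ribosome components under other names, Rack1, a signalling scaffold on the head of the small subunit, and Fau, made as a fusion with a ubiquitin-like protein, stood at 155.3 and 87.1 CPM per kilobase and passed in none of the 5 comparisons.

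Genes around the ribosome were read in the same fits. In both PBMT comparisons edgeR called 0 genes of the mitochondrial ribosomal proteins (77 tested of 78), ribosome biogenesis (51), initiation (25), elongation (8), other TOP mRNA products (15) and mTORC1 and TOP mRNA control (26). Of the mitochondrial list 10 were lower at an unadjusted p under 0.05 in sedentary muscle and 0 higher, against 4.3% and 3.33% of all genes. The median of the list was -0.11, as was that of all genes in the shortest bin of length, and with the trend on length removed 6 were lower, against 3.81% of all genes, and the median was -0.06. This fit for the other lists was added after seeing the data. Of the others 2 biogenesis genes, 1 other TOP product and 1 mTORC1 gene were higher there, and 1 elongation factor and 1 other TOP product were lower. In fatigued muscle no gene of the 6 lists was under that p except 1 of the mTORC1 list, which was lower. Of all genes 1.08% were higher and 0.501% lower at that p in fatigued muscle.

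Between the states 9.36% of all genes were higher and 7.16% lower without PBMT, and 14.2% and 12.7% after it (edgeR with TMM), the background for the lists that follow. Without PBMT 12 of 51 biogenesis genes were higher and 0 lower, with a median of 0.15, and after PBMT the counts were 16 and 0 and the median 0.13. Removing the trend on length left the counts the same, with medians of 0.17 and 0.16, and total counts gave 9 higher and 1 lower without PBMT, against 6.92% and 11.9% of all genes, and 15 and 0 after it, against 12.0% and 13.9%. Gnl3, a nucleolar GTPase, rose by 0.39 and 0.24, Pes1, needed for the large subunit, by 0.29 and 0.23, and the transcription factor Myc by 0.84 and 1.20 on the log2 scale. At an unadjusted p under 0.05, 1 and 0 biogenesis genes were lower, against 15.0% and 18.9% of all genes.

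Of the 77 mitochondrial ribosomal proteins 17 were lower and 0 higher without PBMT (median -0.18), and 8 lower and 0 higher after it (median -0.06). Mrps30 had the lowest p in both (-0.43 and -0.31). At an unadjusted p under 0.05, 0 and 1 were higher, against 16.0% and 20.3% of all genes. The 8 of 77 are a smaller share than the 12.7% of all genes. Removing the trend on length left 12 lower and 1 higher without PBMT (median -0.11), against 7.55% and 8.63% of all genes, and 8 lower and 6 higher after it (median -0.04), against 13.6% and 15.2%. Total counts gave 32 and 8 lower, against 11.9% and 13.9%, and 0 higher. The number of these genes called without PBMT thus depended on scaling and on length.

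Some initiation and elongation factors passed as well. Without PBMT 3 of 25 initiation factors were higher, against 9.36% of all genes, and 0 lower, against 7.16%. The 3 were Eif3a (0.39), Eif3d (0.32) and Eif5b (0.34), and 1 factor was lower at an unadjusted p under 0.05, against 15.0% of all genes. After PBMT 5 were higher and 4 lower, against 14.2% and 12.7%, among the latter the cap-binding Eif4e at -0.36, Eif1ax at -0.30 and Eif4g2 at -0.26. Eef1a2, the elongation factor of adult muscle, stood at 710.5 and Eef1a1 at 197.2 CPM per kilobase. Eef1a1 passed after PBMT alone (0.49, adjusted p = 0.0179; without PBMT 0.20, adjusted p = 0.0889), as did Eif5a (0.22), while Eef1a2 (0.20, adjusted p = 0.0582, and 0.09) and Eef2 (0.08 and -0.01) did not pass. Whether the 2 state comparisons differ was tested only by the difference of PBMT effects, in which Eef1a1 was at 0.29 (adjusted p = 0.946).

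Some regulators of translation passed between the states. Eif4ebp1, the inhibitor of Eif4e that mTORC1 phosphorylates, rose by 0.45 (adjusted p = 0.0102) and 0.52 (adjusted p = 0.0225), and Mknk2, a kinase of Eif4e, rose by 0.53 and 0.54. Pdcd4, an inhibitor of initiation, fell by 0.34 and 0.55. Ddit4, an inhibitor of mTORC1, was at -1.65 without PBMT (adjusted p = 0.015) and at -0.86 after it (adjusted p = 0.295), and Rps6kb1, the S6 kinase, was at -0.36 after PBMT. Larp1 (0.18 and 0.14) and Mtor (0.24 and 0.15) did not pass. In all, 2 of 26 genes of this list were higher and 2 lower without PBMT, against 9.36% and 7.16% of all genes, and 2 higher and 4 lower after it, against 14.2% and 12.7%, so the list did not stand out from the background. Of the 15 other TOP mRNA products, 2 were higher and 0 lower without PBMT, and 1 higher and 1 lower after it. Without PBMT 2 were lower at an unadjusted p under 0.05, against 15.0% of all genes. Pabpc1, the poly(A)-binding protein, was higher in both by 0.23 and 0.35.

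A run of C or T near the annotated start was more frequent in these genes than in promoters in general. Of the 83 genes 63 had an entry in the RefSeq promoter table (GRCm38.p6), with 75 promoters; Rpl3, Rps20, Rplp1 and Rps29 were among the 20 without an entry. A run of at least 7 consecutive C or T on the gene's own strand, within 30 bases of the annotated start, was present in 45 of the 75 promoters (60.0%) and in 11108 of all 32851 promoters (33.8%). The longest run had a median of 7 bases over the members' promoters and of 5 over all promoters. Below are 30 bases around the run at 1 start each of 5 genes that were lower in fatigued muscle without PBMT, of Rps12, which had the lowest p in sedentary muscle, and of the paralogs Rpl3l and Rps4x. Capitals mark the longest run of C or T. The windows lie at chr3:90213629-90213658 on the minus strand for Rps27, chr3:28805498-28805527 on the plus strand for Rpl22l1, chr16:33056472-33056501 on the plus strand for Rpl35a, chr14:24490668-24490697 on the plus strand for Rps24, chrX:37085214-37085243 on the minus strand for Rpl39, chr10:23787190-23787219 on the minus strand for Rps12, chr17:24727816-24727845 on the plus strand for Rpl3l and chrX:102189372-102189401 on the minus strand for Rps4x. Rpl35a, Rps24 and Rpl3l have further starts in the table. The longest run was 6 bases at each further start of Rpl35a, 12 at that of Rps24 and 4 at that of Rpl3l. Rps21, also lower without PBMT, is not shown, and its starts had longest runs of 7 and 5 bases. Rps15a and Rpl36a, lower without PBMT as well, are not shown either. The run of 9 bases shown for Rpl39 begins at position -21 and lies wholly before the annotated start. The TOP motif begins at the first base of the mRNA, and runs were counted on either side of the annotated start, so a run found here is not thereby a TOP motif. A match describes these letters and no more. In Rpl3l and Rps4x the longest run at the start shown was 5 and 4 bases.
Rps27: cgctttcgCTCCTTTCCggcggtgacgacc
Rpl22l1: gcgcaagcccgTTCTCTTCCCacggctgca
Rpl35a: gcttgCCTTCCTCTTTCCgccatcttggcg
Rps24: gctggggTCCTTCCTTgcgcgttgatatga
Rpl39: TCCCCCCCTaagctccgcctctagcgactt
Rps12: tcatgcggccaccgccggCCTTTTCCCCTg
Rpl3l: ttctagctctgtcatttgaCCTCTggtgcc
Rps4x: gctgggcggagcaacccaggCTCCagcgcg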

How the data were processed

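The authors deposited raw counts per gene for each of 24 libraries; per the labels they used Trimmomatic, STAR 2.7.1a, Picard 2.20.4, StringTie 2.0.4, featureCounts 1.6.0 and HTSeq on GRCm38, and the strand and multimapping settings are not stated. Genes were named by GENCODE M21 (55227 of 55487 identifiers matched). Counts were tested with edgeR 4.0.16 in R 4.3.3 (TMM, filterByExpr with a minimum count of 10, robust quasi-likelihood, Benjamini-Hochberg over all genes, 6 against 6 mice, and all 24 for the difference of effects). DESeq2 1.42.0 and limma 3.58.1 (voom with quality weights), other scalings and filters, removal of length or GC trends (loess, span 0.3), the replicate block and leaving out each mouse were alternatives. Ratios used a pseudocount of 0.5. The steps were tested on simulated data. Named were the paralog pairs, the stalk genes, Rpsa, members under the filter, the 3 highest and 3 lowest levels, and the members with the smallest p (5 in each direction for PBMT, 3 otherwise); Rpl36a, Rpl41, Rps27l and the other called members were named after their values were seen. Members and lists were chosen with earlier results of these data known.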

Additional observations from a re-analysis of the deposited data

Results flagged for a closer look

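In each group of 6 mice, the highest or lowest mouse was singled out where its gap to the next mouse, as a part of the whole range of the group, exceeded Dixon's limit for 6 values. This was so in 15 of 88 combinations of a quantity and a group, and chance alone picks about 1 in 20 groups. Sedentary control 4 was singled out most often: its mitochondrially encoded genes took 3.25% of counts (others 15.5% to 17.0%), and in CPM it had the highest Rpl3l (609.2, others up to 521.1), Rpl7 (297.5, others up to 233.6), Rpsa (443.6, others up to 334.5) and Fau (85.1, others up to 69.9) and the lowest Rps27 (88.2, others from 105.9) and Rpl39 (34.7, others from 50.4) of its group. Fatigued PBMT 1 had the highest Rps27 (97.3 CPM, others up to 78.5), Rplp1 (300.3, others up to 241.4) and Rplp2 (138.1, others up to 114.3). Fatigued PBMT 5 had the lowest log2 ratio of Rpl3l to Rpl3 (2.64, others from 3.47) and the highest Rpl3 (71.2 CPM, others up to 47.4). Sedentary PBMT 2 had the highest Rps4l (2.47 CPM, others up to 1.44), and sedentary PBMT 6 the lowest Rpl3l (475.4 CPM, others from 497.6). Sedentary control 3 had the highest Rpl22l1 (35.4 CPM, others up to 32.5).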

How the results depend on the processing

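Of 1539 recomputed values, the summary values kept their call or stayed within the spread between replicates in 491 (medians and shares close to 0 changed sign among these), moved by more in 34, reversed in 3 and passed anew in 1; values of single genes were the same in 948, passed anew in 24, no longer passed in 12 and reversed in 26. No cause of a change was tested. Removing the length trend took the members' median to 0.0032 for PBMT in sedentary muscle (0.0043 with the replicate block, -0.0007 with the shortest transcripts). For the difference of PBMT effects it gave -0.0226 (-0.0261 with the block). For fatigued versus sedentary without PBMT it gave 0.0928 (0.0989 with the block, 0.0783 with the shortest transcripts). The members called higher and lower became 10 and 3 without PBMT (6 and 3 with the block, against 6.78% and 4.82% of all genes, 7 and 3 with the shortest transcripts, against 8.52% and 7.62%), with Rpl35a at 0.0059 (0.0068 with the block), and 20 and 2 after PBMT (13 and 2 with the block, against 11.4% and 10.4%, 22 and 3 with the shortest transcripts, against 15.0% and 13.6%). Removing the GC trend gave 20 lower without PBMT (9.34% of all genes) and Rps4x at -0.0017 for PBMT in sedentary muscle. Total counts gave 17 lower without PBMT (11.9% of all genes); for PBMT in sedentary muscle Rps27 at -0.0032, Rpl28 at -0.0009, Rpl7a at -0.0261 and Rps4x at -0.0278; and for the difference Rps27 at 0.0042, Rpl7a at 0.0211 and Rpl28 at 0.0147. Limma voom gave 1 higher without PBMT (16.4% of all genes), 13 lower after it (16.0%), Rps27 at -0.0066, Rpl28 at -0.0269 and Rps4x at -0.0263 in sedentary muscle, and Rpl19 at -0.0074 and Rps6 at -0.0136 in fatigued muscle. DESeq2 gave 4 higher after PBMT (14.8%). Leaving out both sedentary control 4 and fatigued PBMT 5, chosen after seeing the data, gave Rps27 at 0.0049 and Rpl28 at 0.0268 for the difference.

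With each mouse left out in turn, members called lower without PBMT ran from 8, as without fatigued control 4 (6.23% of all genes), to 20 without sedentary control 4 (13.5%). After PBMT those lower ran from 4, as without fatigued PBMT 3 (11.3%), to 17 without fatigued PBMT 1 (12.6%). Those higher after it ran from 0, as without fatigued PBMT 1 (13.7%), to 3 without fatigued PBMT 2 (14.1%). The ratio of Rpl3l to Rpl3 ran from -0.32 to -0.12 between states after PBMT and from -0.0756 to 0.1289 for PBMT in fatigued muscle. For PBMT in sedentary muscle Rpl13a ran from -0.0029 to 0.1712, Rpl7a from -0.0031 to 0.018, Rps4x from -0.029 to 0.0313, Rps27 from -0.014 to 0.0536 and Rpl28 from -0.045 to 0.0706; in fatigued muscle Rplp2 ran from -0.1021 to 0.0048; for the difference Rps27 ran from -0.1183 to 0.0039 and Rpl28 from -0.0812 to 0.0453. The labels do not pair the samples by number, so the block is given here only: same-numbered deviations correlated at over 0.1 in 0 of 6 sedentary pairs (-0.0715 to 0.0664) and 4 of 6 fatigued pairs (-0.0846 to 0.325), of which 3 correlated best with their own number, a hint from the data that falls short of every pair. With the block, 9 members were lower without PBMT, against 4.52% of all genes, and 5 after it, against 9.08%, and 0 were called for PBMT.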
